A study of Danio rerio with 6 samples.

Results

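Gypsy terminal repeats are the long terminal repeats (LTRs) of the Ty3/Gypsy retrotransposons of zebrafish, counted as transposable element (TE) families in RNA from whole embryos. They were taken as the Gypsy rows of the count tables with LTR in the family name and a total of 10 or more counts over the 6 libraries, leaving out the names that begin Gypsy-35-, Gypsy161- or Gypsy5-. This gave 201 families of 35218 counted features. Of 259 Gypsy rows named LTR, 3 were left out by name and 55 had a lower total. The study asked whether zinc finger proteins with a FiNZ domain (FZNFs) silence TEs, and blocked their translation with a morpholino antisense oligonucleotide (MO).

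The FZNF MO group was made of 3 libraries from Tübingen zygotes injected with 4.5 ng of an MO directed at the translation start shared by many FZNFs. The scrambled MO group was made of 3 libraries from Tübingen zygotes injected with 4.5 ng of a scrambled MO, which the Methods describe as a random mixture of sequences rather than 1 mismatched oligonucleotide. All embryos were wild type and were collected at shield stage, 6 h after fertilization. Each library pooled whole embryos, and both kinds of MO were injected in parallel in each of 3 batches. Libraries with the same replicate number in their titles were taken to come from the same batch, which gave 3 pairs. Pairs 1 and 2 shared a collection date and pair 3 had a later one. A translation-blocking MO need not lower its target transcripts, and protein was not analysed here. Transcripts of FZNFs accounted for 0.713% to 1.21% of counts with the FZNF MO, against 0.476% to 0.554% with the scrambled MO.

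An LTR retrotransposon carries the same repeat at each end. The repeat holds the promoter and the polyadenylation signal, and the internal part between the repeats encodes the gag and pol proteins that make a new copy. Recombination between the ends can remove the internal part and leave a solo LTR, so genomes often hold LTR copies with no coding part beside them. Vertebrate zinc finger proteins of the KRAB family are known in mammals to bind such elements and to recruit silencing factors to them. In the count tables the terminal repeat and the internal part of an element are separate rows, named with LTR or I. Each row sums reads over all genomic copies of a family, and reads that map to several copies are shared among them. A count therefore does not say which copy was transcribed, nor whether a read began in the repeat or ran into it from a neighbouring gene. In whole embryos, fewer cells that transcribe a family and less RNA per cell cannot be told apart.

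Stretches of the consensus sequence of at most 30 bases were at hand for 4 of the 21 families that the naming rule selected for printing. Among them are 3 of the 12 families with a called change, shown because they are the called members with a stretch of that length. The study listed the stretches as matches of zinc finger motifs. Its lists cover motifs predicted for zebrafish, shuffled versions of these as controls, and human motifs. The lists were read together, so a stretch may match a control or a human motif. The stretches are written 5′ to 3′ on the minus strand of the consensus. Capitals mark the longest run of the dinucleotide GA.

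Gypsy-150-LTRb_DR: GAGAGAGAGAGAGAGA
Gypsy-171-LTR_DR: gagggaggggGAGAGA
Gypsy-27-LTR_DR: ggaatgaatGAGAGAGAGAgcgagaaac
Gypsy-31-LTR_DR: ctaaatacaaatctaaatataa

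The run covers all 16 bases listed for Gypsy-150-LTRb_DR, 10 of 28 for Gypsy-27-LTR_DR and 6 of 16 for Gypsy-171-LTR_DR. Gypsy-31-LTR_DR, one of the families with the most counts, has no such run in its 22 bases. Of the 67 members with any stretch in these lists, which are held only in part, 26 had GAGAGA on either strand, so such runs were common among the listed stretches. The first and the third of these families rose with the FZNF MO, Gypsy-171-LTR_DR fell, and Gypsy-31-LTR_DR was not called, as given with their values below. Since the stretches came from lists of motif matches, their make-up describes those lists as well as the repeats.

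Total counts per library ran from 16306069 to 20567549, and the 201 families together took a small part of them. Their share was 0.117%, 0.165% and 0.224% in FZNF MO replicates 1, 2 and 3, against 0.126%, 0.165% and 0.170% in scrambled MO replicates 1, 2 and 3. Group means were 0.169% ± 0.0537 with the FZNF MO and 0.154% ± 0.0240 with the scrambled MO (SD, n = 3 each). The groups overlapped, with the lowest and the highest share both in FZNF MO libraries. The exact (Clopper-Pearson) 95% binomial interval, a measure of counting error alone, was 0.116% to 0.119% for FZNF MO replicate 1 and 0.222% to 0.227% for FZNF MO replicate 3, so the spread between FZNF MO libraries was far wider than counting error.

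Levels are given as CPM, a family's counts relative to the library total after scaling by TMM factors. They compare libraries for 1 family, not families with each other, because the lengths of the annotated copies were not used. A family was called when edgeR's quasi-likelihood test over all tested features, with the injection batch as a block, gave an adjusted p (Benjamini-Hochberg) under 0.05 together with a log2 fold change of 0.32 or more in either direction. Fold changes are FZNF MO over scrambled MO. The SE of a log2 fold change, or of a difference between parts, is its size divided by the square root of edgeR's F statistic. The labels do not say that libraries of a group came from separate clutches, so p-values of single families measure the spread between these 3 pairs of libraries.

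With the FZNF MO, 9 Gypsy terminal repeats were higher and 3 were lower, among 145 that passed the filter on low counts. Of the 9, Gypsy-218_DR-LTR passed that filter only through its FZNF MO libraries. Gypsy-150-LTRb_DR would not have passed it on its scrambled MO libraries alone. Over all 17804 tested features, 3.27% were called higher and 2.18% lower, and the terminal repeats stood at 6.21% and 2.07%. The other 56 families had totals of 11 to 68 counts, with a median of 29, and were not tested. All 12 calls depended on treating the batches as pairs, as edgeR's test left 0 higher and 0 lower calls when the block was dropped. In that fit 13 higher and 2 lower had an unadjusted p under 0.05, with no share over all tested features at hand. With the block, 18 of the 145 were higher and 7 lower at that unadjusted threshold, beside 10.4% and 9.24% of all tested features. DESeq2 with the batch as a term called 12 higher and 3 lower, among them 8 of the 9 higher and the 3 lower families called by edgeR. Over all 17804 features it called 798 higher and 547 lower, beside 583 and 388 by edgeR. The calls also depended on pair 2, since 1 higher and 1 lower call were left without it, against 8 and 3 without pair 1 and 7 and 4 without pair 3. The calls over all tested features moved as well. They were 135 higher and 27 lower of 18223 without pair 2, and 464 and 249 of 17918 without pair 1. Without pair 3 they were 1268 and 917 of 18264, beside the 7 and 4 of 146 terminal repeats.

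The median log2 fold change of the 145 tested repeats was 0.13, beside -0.01 over all tested features. The quartiles were -0.24 and 0.56, and 88 of the 145 had a positive value. All FZNF MO libraries lay above all scrambled MO libraries for 13 of the 145 (8.47% of all tested features did so), and below them for 5 (8.47% of all tested features). Counting also the untested families, the groups did not overlap for 14 higher and 10 lower of the 201, beside 7.88% and 7.44% of all features with a total of 10 or more counts. The ratio was positive in 3 of 3 pairs for 41 of the 145 tested families, beside 20.9% of all tested features, and negative in 3 of 3 pairs for 17, beside 21.6%.

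The tilt to positive values was uneven over the pairs. The median log2 ratio of the tested repeats was 0.03 in pair 1, 0.03 in pair 2 and 0.40 in pair 3, and 76, 74 and 103 of the 145 had a positive ratio in pairs 1, 2 and 3. Pearson's r between the log2 ratios of the same 145 families was 0.19 for pairs 1 and 2, 0.17 for pairs 1 and 3 and 0.32 for pairs 2 and 3. These correlations are across families that share their libraries and describe how little the ratio of a family in one pair followed its ratio in another. Leaving out pair 3 lowered the median log2 fold change to 0.02, and leaving out pair 1 raised it to 0.26.

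**Figure D1:**
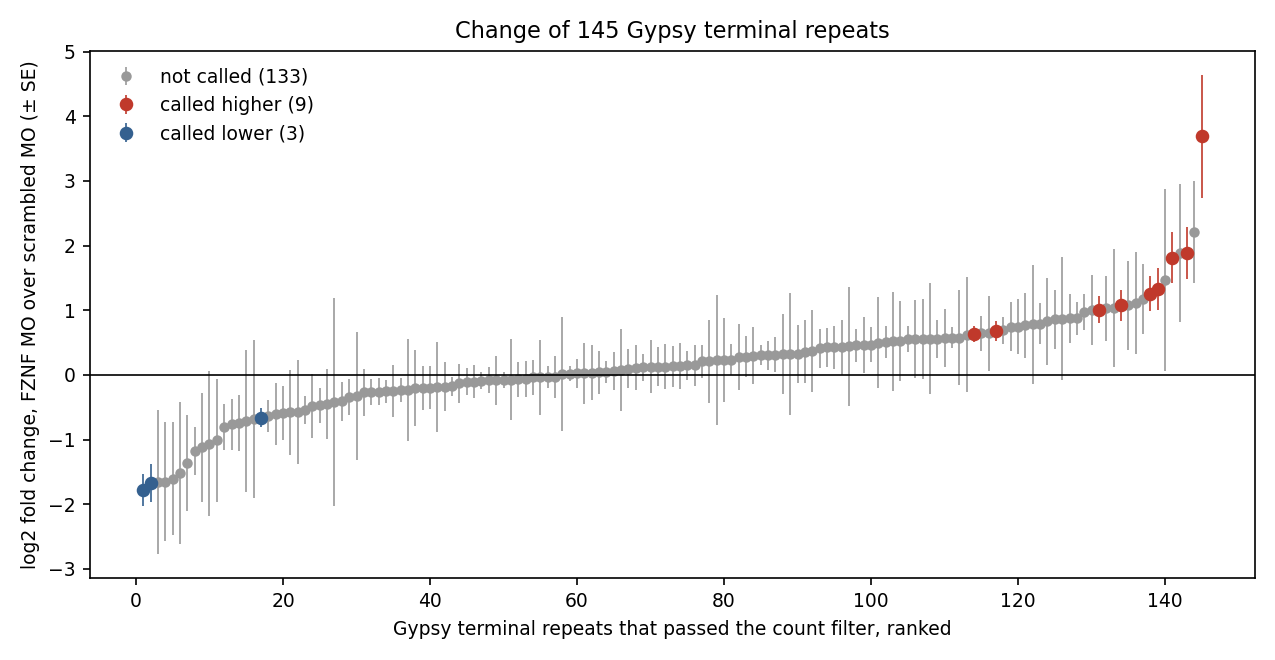
The log2 fold change (FZNF MO over scrambled MO, y axis) of the 145 Gypsy terminal repeats that passed the count filter, ranked along the x axis, with bars of 1 SE. The 9 called higher are red, the 3 called lower blue and the others grey, and 88 of the 145 points lie above 0.

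Among the families called higher, Gypsy-21-LTR_DR carried the most counts, and Gypsy4-LTR_DR had groups with little spread. Gypsy-21-LTR_DR had 73.8, 84.5 and 93.4 CPM in FZNF MO replicates 1, 2 and 3, against 47.2, 60.4 and 54.9 CPM in scrambled MO replicates 1, 2 and 3. Its log2 fold change was 0.63 ± 0.13 (SE), with an edgeR adjusted p of 0.0131. Every FZNF MO library was above every scrambled MO library. Gypsy4-LTR_DR had 16.5, 19.1 and 16.2 CPM in FZNF MO replicates 1, 2 and 3, against 8.83, 8.14 and 8.65 CPM in scrambled MO replicates 1, 2 and 3. Its log2 fold change was 1.01 ± 0.21 (SE; edgeR adjusted p = 0.0174), and the libraries within each group were close to each other. Both calls were lost without pair 2, with adjusted p of 0.159 for Gypsy-21-LTR_DR and 0.276 for Gypsy4-LTR_DR, while their log2 fold changes were then 0.72 and 0.91.

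Gypsy101-LTR_DR and Gypsy-27-LTR_DR also had separate groups, but 1 library stood far above the rest in each. Gypsy101-LTR_DR had 18.1, 5.75 and 9.25 CPM in FZNF MO replicates 1, 2 and 3, against 2.01, 3.05 and 3.04 CPM in scrambled MO replicates 1, 2 and 3 (log2 fold change 1.88 ± 0.40 SE; edgeR adjusted p = 0.0182). Gypsy-27-LTR_DR had 19.5, 10.2 and 9.91 CPM in FZNF MO replicates 1, 2 and 3, against 3.90, 5.15 and 6.13 CPM in scrambled MO replicates 1, 2 and 3 (log2 fold change 1.33 ± 0.32 SE; edgeR adjusted p = 0.0341). FZNF MO replicate 1 was the highest library for both. Without pair 1 their log2 fold changes were 1.26 and 0.84, with adjusted p of 0.0774 and 0.188. Without pair 2, Gypsy-27-LTR_DR had an adjusted p of 0.183.

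Gypsy101 was the called element with more than 1 terminal family among the members, and its other terminal families were not called. Gypsy101-LTRb_DR had 6.27, 8.93 and 13.2 CPM in FZNF MO replicates 1, 2 and 3, against 7.92, 12.0 and 9.74 CPM in scrambled MO replicates 1, 2 and 3 (log2 fold change -0.10 ± 0.26 SE; edgeR adjusted p = 0.867). Gypsy101B-LTR_DR had 0.241, 0.812 and 0.420 CPM in FZNF MO replicates 1, 2 and 3, against 0.402, 2.47 and 1.32 CPM in scrambled MO replicates 1, 2 and 3 (log2 fold change -1.36 ± 0.74 SE; edgeR adjusted p = 0.344). The groups overlapped for both variants, and the difference between the variants was not tested.

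In 3 other families called higher the FZNF MO libraries of pairs 2 and 3 were the highest. Gypsy-206_DR-LTR had 6.46, 12.2 and 13.4 CPM in FZNF MO replicates 1, 2 and 3, against 3.5, 4.15 and 5.39 CPM in scrambled MO replicates 1, 2 and 3 (log2 fold change 1.26 ± 0.27 SE; edgeR adjusted p = 0.0194). Gypsy164-LTR_DR had 26.8, 67.5 and 86.7 CPM in FZNF MO replicates 1, 2 and 3, against 24.3, 23.2 and 30.8 CPM in scrambled MO replicates 1, 2 and 3 (log2 fold change 1.07 ± 0.24 SE; edgeR adjusted p = 0.0232). The groups were separate for Gypsy-206_DR-LTR and overlapped for Gypsy164-LTR_DR, whose log2 ratio was 0.14 in pair 1, 1.54 in pair 2 and 1.49 in pair 3. Gypsy-218_DR-LTR had 0.820, 2.06 and 3.12 CPM in FZNF MO replicates 1, 2 and 3, against 0.115, 0 and 0.401 CPM in scrambled MO replicates 1, 2 and 3, or 17, 33 and 52 counts against 2, 0 and 7. Its fitted log2 fold change of 3.69 ± 0.95 (SE; edgeR adjusted p = 0.0449) rested on these few counts, and DESeq2 gave it no adjusted p. The family passed the count filter only through the group where it was high, so its call is not independent of the filter. Without pair 2 the adjusted p was 0.276 for Gypsy-206_DR-LTR, 0.341 for Gypsy164-LTR_DR and 0.267 for Gypsy-218_DR-LTR, and without pair 3 it was 0.0727 for Gypsy-218_DR-LTR.

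The remaining families called higher had groups that overlapped, and their calls came from the change within each pair. Gypsy-24-LTR_DR had 34.1, 48.5 and 44.1 CPM in FZNF MO replicates 1, 2 and 3, against 19.3, 36.1 and 25.1 CPM in scrambled MO replicates 1, 2 and 3 (log2 fold change 0.68 ± 0.16 SE; edgeR adjusted p = 0.0273). Gypsy-150-LTRb_DR, the family with the unbroken GA run, had 2.12, 4.12 and 7.87 CPM in FZNF MO replicates 1, 2 and 3, against 0.516, 1.21 and 2.41 CPM in scrambled MO replicates 1, 2 and 3 (log2 fold change 1.81 ± 0.40 SE; edgeR adjusted p = 0.0216). Gypsy-150-LTRb_DR was higher in the FZNF MO library of each batch, with log2 ratios of 1.83, 1.68 and 1.66 in pairs 1, 2 and 3. The level also differed between batches. With 9 counts in scrambled MO replicate 1, its scrambled MO libraries alone would not have passed the count filter. The call of Gypsy-150-LTRb_DR is therefore not independent of that filter. Without pair 2 the adjusted p was 0.183 for Gypsy-24-LTR_DR and 0.170 for Gypsy-150-LTRb_DR, without pair 1 it was 0.0533 for Gypsy-24-LTR_DR, and without pair 3 it was 0.0738 for Gypsy-150-LTRb_DR.

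The 3 families called lower included the smallest adjusted p of any member. Gypsy-23-LTR_DR had 6.56, 17.2 and 27.0 CPM in FZNF MO replicates 1, 2 and 3, against 40.8, 57.1 and 56.2 CPM in scrambled MO replicates 1, 2 and 3. Its log2 fold change was -1.78 ± 0.25 (SE; edgeR adjusted p = 0.00150), and the groups were well apart. It was the 1 member whose lower call was kept with each pair left out in turn, but it too was lost without the block (adjusted p = 0.147). The log2 ratio was -2.62 in pair 1, -1.72 in pair 2 and -1.05 in pair 3.

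Gypsy-171-LTR_DR had 1.69, 3.37 and 2.88 CPM in FZNF MO replicates 1, 2 and 3, against 6.02, 10.5 and 8.54 CPM in scrambled MO replicates 1, 2 and 3 (log2 fold change -1.67 ± 0.30 SE; edgeR adjusted p = 0.00707). The groups were separate, and the log2 ratios of -1.77, -1.60 and -1.53 were close over pairs 1, 2 and 3. Gypsy-221_DR-LTR had 22.4, 21.9 and 43.2 CPM in FZNF MO replicates 1, 2 and 3, against 37.2, 37.7 and 59.9 CPM in scrambled MO replicates 1, 2 and 3 (log2 fold change -0.66 ± 0.15 SE; edgeR adjusted p = 0.0253). Here the groups overlapped, because both libraries of pair 3 were high. Without pair 2 the adjusted p was 0.128 for Gypsy-171-LTR_DR and 0.351 for Gypsy-221_DR-LTR.

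**Figure D2:**
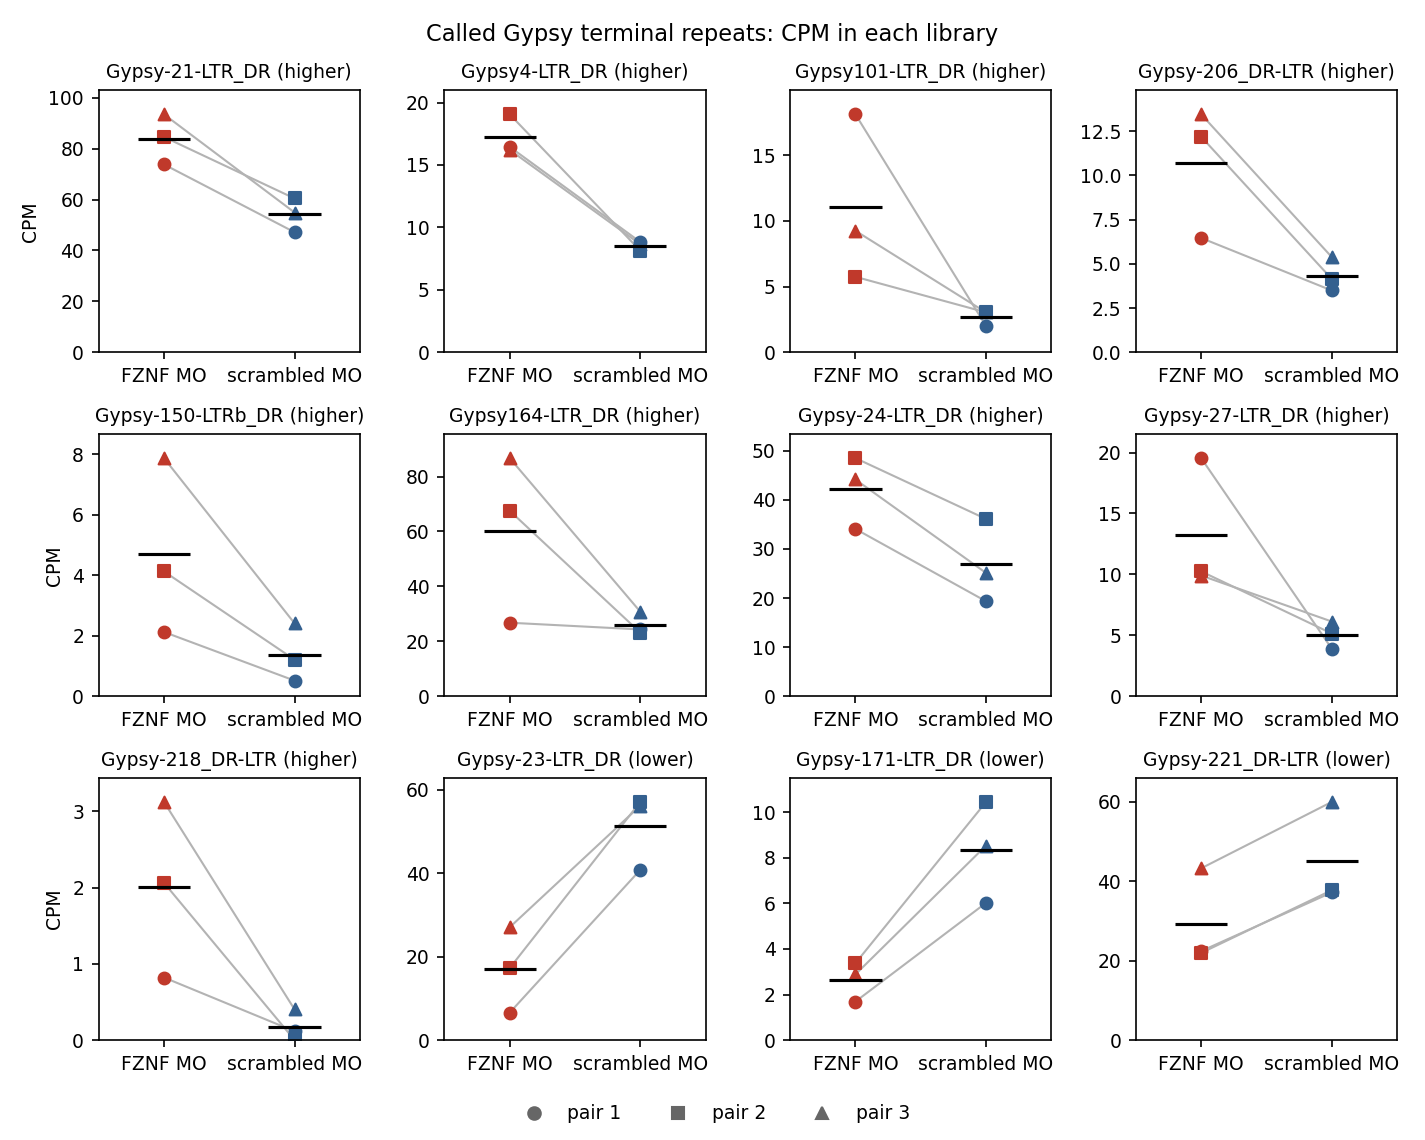
CPM (y axis, from 0) of the 12 called Gypsy terminal repeats in FZNF MO and scrambled MO libraries (x axis), where symbols mark the pair, grey lines join the libraries of a pair and black bars are group means. In each panel all 3 lines run the same way, while the groups themselves overlap in Gypsy-150-LTRb_DR, Gypsy164-LTR_DR, Gypsy-24-LTR_DR and Gypsy-221_DR-LTR.

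Just outside the threshold, 3 families with positive fold changes had the smallest adjusted p of the uncalled members. Gypsy-116-LTR_DR had 12.9, 5.62 and 6.42 CPM in FZNF MO replicates 1, 2 and 3, against 6.77, 2.63 and 3.44 CPM in scrambled MO replicates 1, 2 and 3 (log2 fold change 0.97 ± 0.27 SE; edgeR adjusted p = 0.0624). Gypsy-25-LTR_DR had 9.70, 12.2 and 16.7 CPM in FZNF MO replicates 1, 2 and 3, against 5.05, 9.25 and 6.82 CPM in scrambled MO replicates 1, 2 and 3 (log2 fold change 0.88 ± 0.25 SE; edgeR adjusted p = 0.0681). The groups were separate for Gypsy-25-LTR_DR and overlapped for Gypsy-116-LTR_DR. Gypsy140-LTR_DR had 47.7, 69.6 and 107 CPM in FZNF MO replicates 1, 2 and 3, against 41.8, 50.6 and 50.8 CPM in scrambled MO replicates 1, 2 and 3 (log2 fold change 0.58 ± 0.17 SE; edgeR adjusted p = 0.0677). DESeq2 called all 3 of them, with adjusted p of 0.0486 for Gypsy-116-LTR_DR, 0.0386 for Gypsy-25-LTR_DR and 0.0242 for Gypsy140-LTR_DR.

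Among the families that took the most counts 1 was called by edgeR. The 6 with the highest mean CPM were Gypsy50-LTR_DR, Gypsy82-LTR_Dr, Gypsy-31-LTR_DR, Gypsy-21-LTR_DR, Gypsy140-LTR_DR and Gypsy118-LTR_DR, and together they held 35.7% to 39.8% of the counts of the 201 families in the FZNF MO libraries and 35.7% to 37.6% in the scrambled MO libraries. The called one was Gypsy-21-LTR_DR. Of the 145 tested repeats 6.21% were called higher and 2.07% lower, beside 3.27% and 2.18% of all tested features. DESeq2 also called Gypsy140-LTR_DR, as given above. Gypsy50-LTR_DR had 83.0, 238 and 415 CPM in FZNF MO replicates 1, 2 and 3, against 154, 249 and 269 CPM in scrambled MO replicates 1, 2 and 3 (log2 fold change -0.11 ± 0.21 SE; edgeR adjusted p = 0.833). Its log2 ratio was -0.89 in pair 1, -0.07 in pair 2 and 0.63 in pair 3, so the 3 pairs did not share a direction.

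Gypsy-31-LTR_DR had 75.5, 80.2 and 88.6 CPM in FZNF MO replicates 1, 2 and 3, against 66.7, 88.0 and 87.4 CPM in scrambled MO replicates 1, 2 and 3 (log2 fold change 0.02 ± 0.12 SE; edgeR adjusted p = 0.949). Gypsy82-LTR_Dr had 77.6, 78.0 and 125 CPM in FZNF MO replicates 1, 2 and 3, against 89.6, 90.8 and 110 CPM in scrambled MO replicates 1, 2 and 3 (log2 fold change -0.08 ± 0.13 SE; edgeR adjusted p = 0.783). For both the groups overlapped over most of their range. Gypsy118-LTR_DR had 57.4, 51.6 and 69.2 CPM in FZNF MO replicates 1, 2 and 3, against 67.5, 57.4 and 63.7 CPM in scrambled MO replicates 1, 2 and 3 (log2 fold change -0.09 ± 0.13 SE; edgeR adjusted p = 0.761). Over the 145 tested families the mean CPM and the log2 fold change had a Spearman's rho of -0.01, a description across families that share libraries.

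The internal parts of Gypsy elements, which hold the gag and pol genes, gave another picture in the same fit. Of 147 tested internal parts 20 were called higher and 3 lower, with a median log2 fold change of 0.54 beside 0.13 for the terminal repeats. No names were left out of the internal parts, so the sets are not matched. The 20 include Gypsy5-I_DR and Gypsy161-I_DR, with log2 fold changes of 2.26 and 2.81. Their terminal repeats, left out by name, had 1.86 and -0.08. The 95 elements with both parts tested allowed a comparison within the element. Their median log2 fold change was 0.13 for the terminal repeat and 0.48 for the internal part. In 71 of the 95 the terminal repeat had the lower log2 fold change, and the median difference, terminal minus internal, was -0.32. Both parts were positive in 49 elements, both negative in 10, the internal part alone in 25 and the terminal repeat alone in 11. Pearson's r between the changes of the parts was 0.28 and Spearman's rho 0.30 (n = 95 elements, which share their libraries).

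**Figure D3:**
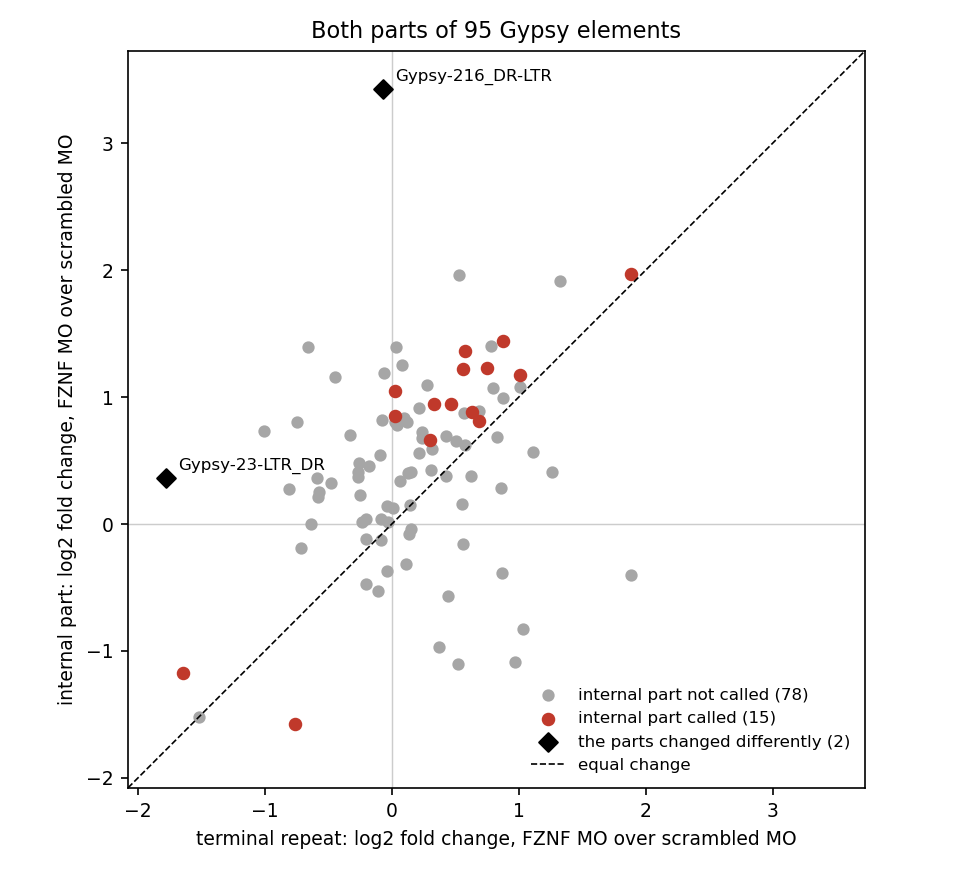
The log2 fold change (FZNF MO over scrambled MO) of the terminal repeat (x axis) and of the internal part (y axis) of 95 Gypsy elements, with a dashed line of equal change. In 71 of the 95 elements the point lies above the line, and Gypsy-23-LTR_DR and Gypsy-216_DR-LTR (black) are those whose parts differed by the test.

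Summed over these 95 elements, the terminal repeats had 952, 1315 and 1783 CPM in FZNF MO replicates 1, 2 and 3, against 1006, 1339 and 1353 CPM in scrambled MO replicates 1, 2 and 3. The internal parts had 1431, 1667 and 1671 CPM in FZNF MO replicates 1, 2 and 3, against 911, 1215 and 1232 CPM in scrambled MO replicates 1, 2 and 3. The groups overlapped for the terminal sum and were separate for the internal sum. The terminal share of the counts of both parts was 39.9%, 44.1% and 51.6% in FZNF MO replicates 1, 2 and 3, against 52.5%, 52.4% and 52.3% in scrambled MO replicates 1, 2 and 3. It averaged 45.2% ± 5.92 with the FZNF MO and 52.4% ± 0.0644 with the scrambled MO (SD, n = 3 each), and no test was run on these sums. Without Gypsy50-LTR_DR and its internal part the share was 40.9% ± 3.88 with the FZNF MO and 48.0% ± 0.678 with the scrambled MO (SD, n = 3 each).

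**Figure D4:**
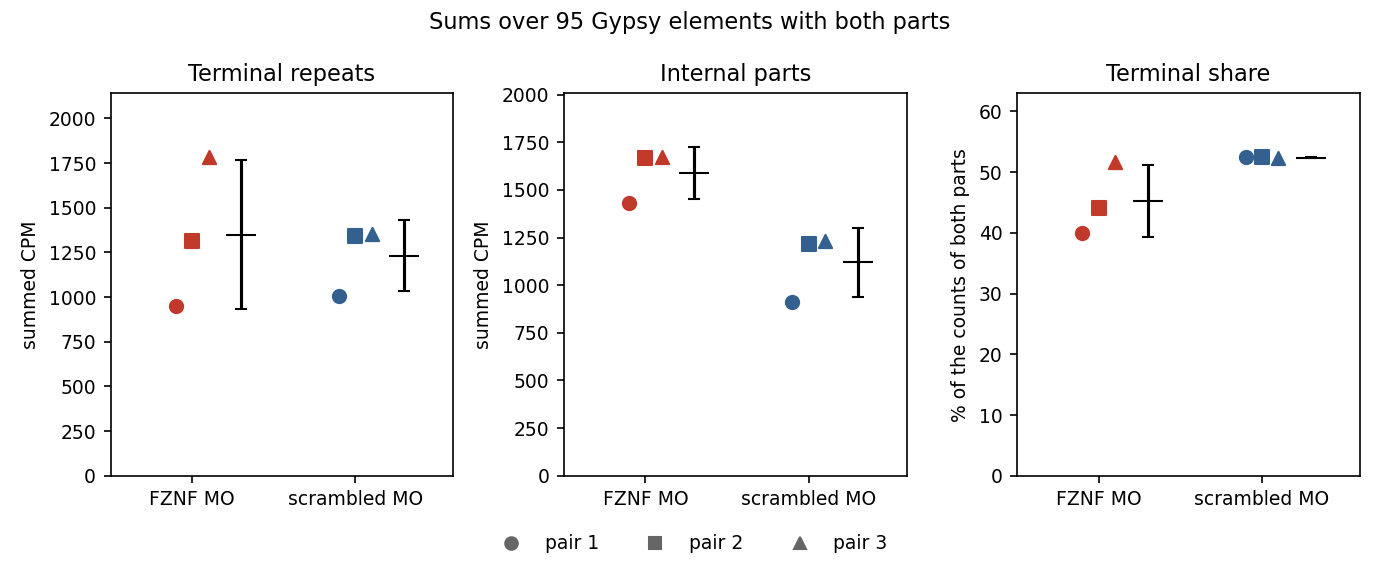
Summed CPM of the terminal repeats and of the internal parts of 95 Gypsy elements, and the terminal share of the counts of both parts in %, in FZNF MO (red) and scrambled MO (blue) libraries, with the mean and SD of each group beside its points and symbols for the pair. The internal sum is 1431 to 1671 CPM with the FZNF MO and 911 to 1232 CPM with the scrambled MO, while the terminal sums overlap.

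The gap between the parts was largest in pair 1 and absent in pair 3, with median differences (terminal minus internal) of -0.74 in pair 1, -0.37 in pair 2 and 0.06 in pair 3. The median log2 ratio of the terminal repeat was 0.03, 0.10 and 0.40 in pairs 1, 2 and 3, and that of the internal part was 0.64, 0.41 and 0.36. The terminal repeat had the lower ratio in 71, 61 and 43 of the 95 elements in pairs 1, 2 and 3. It was the lower in 3 of 3 pairs for 24 elements and the higher in 3 of 3 pairs for 9. The median difference in log2 fold change was -0.16 without pair 1, against -0.31 without pair 2 and -0.51 without pair 3.

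**Figure D5:**
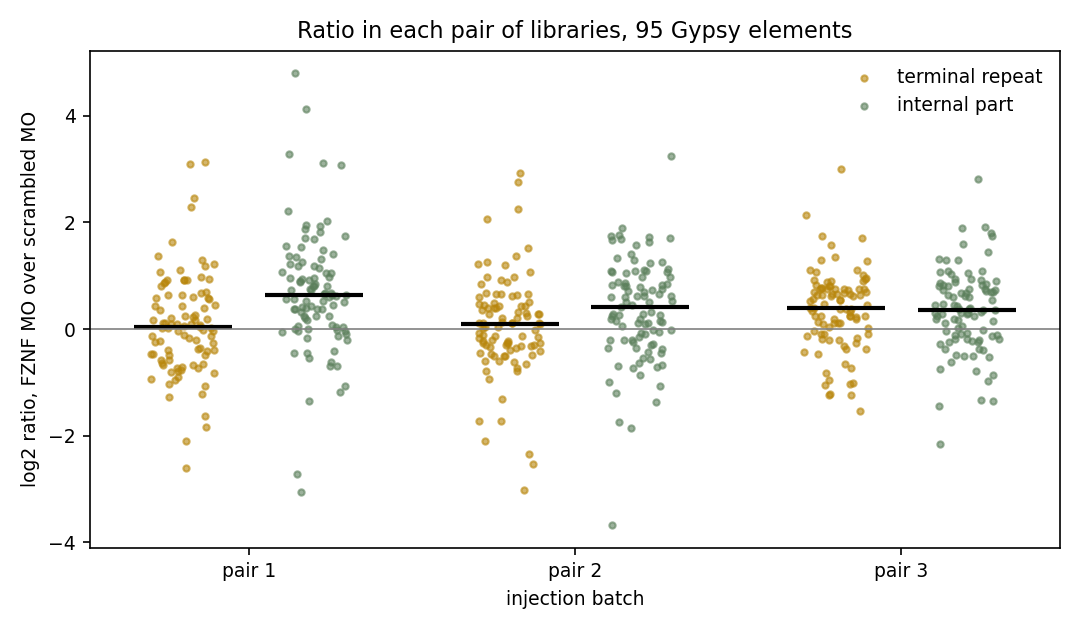
The log2 ratio of the FZNF MO to the scrambled MO library (y axis) in each injection batch (x axis) for the terminal repeat and the internal part of 95 Gypsy elements, each point an element and each black bar a median. The medians of terminal repeat and internal part are 0.03 and 0.64 in pair 1, 0.10 and 0.41 in pair 2, and 0.40 and 0.36 in pair 3.

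The change of the terminal repeat was tested against that of the internal part of the same element, as a term of part by condition in edgeR, over 158 LTR elements of all superfamilies. In this fit the spread was largely pooled over the elements. Its p-values therefore do not measure the spread of 1 element between the pairs. In 2 of the 95 Gypsy elements the parts differed at an adjusted p under 0.05, in both with the terminal repeat below the internal part, and 0 had it above. Over all 158 elements 2.53% were called below and 0% above. At an unadjusted p under 0.05, 7 of the 95 had the terminal repeat below and 3 above. In both directions this was near the share over all 158 elements at the same threshold. When the ratio of the parts was tested with limma 0 elements were called, with 7 below and 4 above at an unadjusted p under 0.05. The limma adjusted p was 0.209 for each of the 2 elements called by edgeR. By edgeR 0 were called without pair 1 (2 below and 3 above at an unadjusted p under 0.05) and 0 without pair 2 (4 below and 0 above). Without pair 3, 3 were called (13 below and 0 above at an unadjusted p under 0.05). Of these 1, Gypsy-23-LTR_DR, was among the 2 called with all pairs. The unadjusted counts of limma and of the fits without a pair have no share over all 158 elements beside them.

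Gypsy-23-LTR_DR, described above with its fall, was the first of these. Its internal part had only 0.772, 0.75 and 0.540 CPM in FZNF MO replicates 1, 2 and 3, against 0.746, 0.420 and 0.458 CPM in scrambled MO replicates 1, 2 and 3. The difference, terminal minus internal, was -2.21 ± 0.60 on the log2 scale (SE; edgeR adjusted p = 0.0154). The terminal repeat held 89.5%, 95.8% and 98.0% of the counts of the element in FZNF MO replicates 1, 2 and 3, against 98.2%, 99.3% and 99.2% in scrambled MO replicates 1, 2 and 3.

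In Gypsy-216_DR-LTR the internal part was the one that changed. The terminal repeat had 0.627, 1.31 and 1.92 CPM in FZNF MO replicates 1, 2 and 3, against 0.918, 1.79 and 1.15 CPM in scrambled MO replicates 1, 2 and 3 (log2 fold change -0.07 ± 0.63 SE; edgeR adjusted p = 0.967). The internal part had 2.85, 2.44 and 2.46 CPM in FZNF MO replicates 1, 2 and 3, against 0.0574, 0.158 and 0.630 CPM in scrambled MO replicates 1, 2 and 3 (log2 fold change 3.43 ± 0.78 SE; edgeR adjusted p = 0.0254). The difference was -3.49 ± 1.04 on the log2 scale (SE; edgeR adjusted p = 0.0354). The internal part passed the count filter because its FZNF MO libraries were high. Its call and the test of the 2 parts are therefore not independent of that filter. The terminal share of the element's counts was 18.1%, 35% and 43.8% in FZNF MO replicates 1, 2 and 3, against 94.1%, 91.9% and 64.5% in scrambled MO replicates 1, 2 and 3.

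The internal part was called higher for 14 of the 95 elements and lower for 2, which were Gypsy80 and Gypsy128, named after their values were seen. Only 3 elements were called higher in both parts, Gypsy-21, Gypsy4 and Gypsy101, and 0 were called lower in both. For these 3 the changes of the parts were close, with log2 fold changes of 0.63 for the terminal repeat and 0.88 for the internal part of Gypsy-21-LTR_DR, 1.01 and 1.17 for Gypsy4-LTR_DR, and 1.88 and 1.97 for Gypsy101-LTR_DR. The differences between the parts were -0.25 ± 0.37, -0.17 ± 0.45 and -0.09 ± 0.54 (SE).

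Elsewhere the internal part rose and its terminal repeat was not called by edgeR. The internal part of GypsyDR1_LTR had 24.1, 49.7 and 52.2 CPM in FZNF MO replicates 1, 2 and 3, against 9.58, 20.7 and 24.5 CPM in scrambled MO replicates 1, 2 and 3 (log2 fold change 1.23 ± 0.16 SE; edgeR adjusted p = 9.7e-04). Its terminal repeat had 3.04, 7.0 and 8.83 CPM in FZNF MO replicates 1, 2 and 3, against 2.98, 5.04 and 2.64 CPM in scrambled MO replicates 1, 2 and 3 (log2 fold change 0.75 ± 0.37 SE; edgeR adjusted p = 0.301). The terminal groups overlapped, with nearly equal libraries in pair 1. The difference between the parts was -0.48 ± 0.50 (SE; edgeR adjusted p = 0.683), and did not pass the test.

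The internal part of Gypsy102-LTR_DR had 50.7, 98.6 and 110 CPM in FZNF MO replicates 1, 2 and 3, against 24.5, 55.7 and 68.8 CPM in scrambled MO replicates 1, 2 and 3 (log2 fold change 0.85 ± 0.13 SE; edgeR adjusted p = 0.00305). Its terminal repeat had 5.60, 14.1 and 22.0 CPM in FZNF MO replicates 1, 2 and 3, against 7.34, 13.1 and 17.7 CPM in scrambled MO replicates 1, 2 and 3 (log2 fold change 0.02 ± 0.22 SE; edgeR adjusted p = 0.969). The difference between the parts of Gypsy102-LTR_DR was -0.83 ± 0.43 (SE; edgeR adjusted p = 0.413), and did not pass the test. Internal parts of Gypsy-25-LTR_DR, Gypsy140-LTR_DR and Gypsy-26-LTR_DR were called higher too, with log2 fold changes of 1.44, 1.36 and 1.22. The parts of these elements did not differ by the test (edgeR adjusted p = 0.633, 0.472 and 0.592). DESeq2 called the terminal repeats Gypsy-25-LTR_DR and Gypsy140-LTR_DR, as given above. Gypsy-26-LTR_DR itself had 8.59, 10.5 and 10.4 CPM in FZNF MO replicates 1, 2 and 3, against 3.27, 9.67 and 8.77 CPM in scrambled MO replicates 1, 2 and 3 (log2 fold change 0.56 ± 0.29 SE; edgeR adjusted p = 0.32), and its groups overlapped.

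Terminal repeats of the other LTR superfamilies were set beside those of Gypsy, with no test of the difference. Of 40 tested ERV1 terminal repeats 3 were called higher and 1 lower, with a median log2 fold change of -0.08. Of 32 tested Pao terminal repeats 0 were called in either direction by edgeR and 0 by DESeq2, 2 were higher and 0 lower at an unadjusted p under 0.05, and the median was 0.10. The internal parts stood above the terminal repeats there as well, with medians of 0.16 for ERV1 (26 tested, 2 higher and 1 lower) and 0.45 for Pao (49 tested, 6 higher and 0 lower). As in Gypsy, the median log2 ratio of the terminal repeats was highest in pair 3, at 0.33 for ERV1 and 0.51 for Pao. In that pair the internal parts stood below them, with medians of 0.20 for ERV1 and 0.33 for Pao. The terminal and internal rows of these superfamilies are not matched sets.

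Genes that act in TE silencing were read in the same fit. Of 33 listed genes of chromatin silencing, 21 were matched by symbol and tested. At an unadjusted p under 0.05, 4 were higher and 3 lower, beside 10.4% and 9.24% of all tested features. By edgeR's call 2 were higher and 0 lower, beside 3.27% and 2.18% of all tested features. The first was trim33, a relative of the mammalian KRAB cofactor TRIM28, with 213, 223 and 175 CPM in FZNF MO replicates 1, 2 and 3, against 125, 134 and 141 CPM in scrambled MO replicates 1, 2 and 3 (log2 fold change 0.61 ± 0.12 SE; edgeR adjusted p = 0.0123). The other was morc3b, of the MORC family of chromatin ATPases, with 114, 47.5 and 65.6 CPM in FZNF MO replicates 1, 2 and 3, against 43.0, 22.0 and 59.0 CPM in scrambled MO replicates 1, 2 and 3 (log2 fold change 0.89 ± 0.21 SE; edgeR adjusted p = 0.0275). The groups were separate for trim33 and overlapped for morc3b. Next by p were atf7ip, a partner of the histone methyltransferase SETDB1 in mammals (log2 fold change -0.37 ± 0.12 SE; edgeR adjusted p = 0.109), and uhrf1, which guides maintenance of DNA methylation (0.39 ± 0.13 SE; edgeR adjusted p = 0.117). Of 16 listed genes of the piRNA pathway, the small RNA defence of the germline, 13 were tested and 0 were called by edgeR and 1 higher by DESeq2, with 1 higher and 2 lower at an unadjusted p under 0.05. Those were tdrd9 (log2 fold change 0.51 ± 0.15 SE; edgeR adjusted p = 0.0729), henmt1 (-0.94 ± 0.38 SE; edgeR adjusted p = 0.189) and tdrd1 (-0.84 ± 0.35 SE; edgeR adjusted p = 0.205).

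Cell type markers were checked for a shift in the make-up of the embryos. Of the tested markers, 0 of 7 for the enveloping layer, 0 of 4 for the yolk syncytial layer, 0 of 6 for primordial germ cells and 0 of 4 for ectoderm were called by edgeR, and 0 of each by DESeq2. At an unadjusted p under 0.05, 1 enveloping layer marker was higher and 1 lower, 1 ectoderm marker was higher, and 0 markers of the yolk syncytial layer and of primordial germ cells passed. In the mesendoderm margin 1 of 6 was called higher, gata5, and 2 of 6 were higher at an unadjusted p under 0.05, gata5 and tbx16. The list summed to 1020 to 1818 CPM with the FZNF MO and 938 to 1243 CPM with the scrambled MO. Of 5 maternal oocyte markers 1 was higher, zp2.1, and 1 was lower, h1m, and the list summed to 124 to 250 CPM with the FZNF MO and 130 to 276 CPM with the scrambled MO. The summed levels of both lists overlapped between the groups. Within each pair, however, the margin sum was higher and the oocyte sum lower with the FZNF MO. Of the oocyte markers only h1m had a negative log2 fold change (-0.70). Those of zp2.1, buc, zp3b and org were 0.90, 0.45, 0.14 and 0.04, so the lower sum does not describe the list as a whole. No matched marker was at 0 in all libraries. The part of these markers in the changes of the terminal repeats was not tested.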

How the data were processed

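RNA-seq libraries were strand-specific and poly(A)-selected. Per the submitters' processing notes and the Methods, the authors ran FastQC 0.11.9 on the reads, used STAR 2.7.5a in multimapping mode on GRCz11, and obtained counts with TEcount for Ensembl genes, their FZNF models and TE families. For that counting the strand setting is not given in the sources used here. Values deposited by the authors are raw counts per feature and were used as such. Counts were filtered with filterByExpr by condition, scaled by TMM and fitted with the quasi-likelihood test of edgeR 4.0.16 (R 4.3.3) over all features, with batch and condition as terms. Terminal and internal parts were compared in edgeR with library, part, part by batch and part by condition as terms, and with limma 3.58.1 on log2 ratios after adding 0.5. DESeq2 1.42.0 was an alternative.

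The Methods of the study describe injection batches but do not tie them to the library titles. The replicate number in the titles was taken to mark the batch and was the block. Libraries of a pair deviated from their group means together (r = 0.45, 0.33 and 0.24), and unpaired ones had r of -0.32 to 0.06. Deviations within a group cancel, so a positive r in the pairs by itself lowers the unpaired r. The unpaired range is therefore no independent check of the pairing. The fits were tested on simulated data drawn without differences between batches, so the use of the block was not tested there.

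Named families were up to 10 called higher and up to 6 called lower with the smallest p, the 6 with most CPM, up to 8 with a called internal part, up to 6 whose parts differed, variants of called elements and the 3 uncalled ones nearest the threshold. Of the silencing lists up to 4 genes each were eligible by smallest p. Members and lists were chosen with earlier results of these data known. Alternatives were DESeq2, dropping the block or replacing it by the collection day, scaling by RLE or by TMM on Ensembl genes, dropping the count filter or asking for 50 counts in 3 libraries, dropping the fold minimum, and leaving out each pair.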

Additional observations from a re-analysis of the deposited data

How the results depend on the processing

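The counts of called Gypsy terminal repeats, 9 higher and 3 lower, stayed within 1.5 times under RLE factors, TMM factors from Ensembl genes, DESeq2, no count filter, the stricter filter and no fold threshold, with 7 to 13 higher and 3 lower. The number tested differed, with 13 of 201 higher with no count filter and 7 of 87 with the stricter one, beside 9 of 145. Calls over all features were 1003 higher and 714 lower of 22984 with no count filter. With the stricter filter they were 597 and 411 of 12850. With no replicate block 0 were called higher and 0 lower, and with the collection day as the block 0 and 0. Over all features the calls then numbered 120 higher and 24 lower with no replicate block, and 112 and 19 with the collection day, beside 583 and 388. With each pair left out in turn, 1 to 8 were called higher and 1 to 4 lower, the lowest without pair 2, where 135 features were called higher and 27 lower in all. The median log2 fold change of the terminal repeats kept its sign throughout, from 0.02 to 0.26 with a pair left out and 0.15 with no replicate block. The count of elements whose parts differed was 2, and it was 1 with no replicate block, 0 with limma on the ratio, and 0 to 3 with a pair left out. Of the families named, none that was called changed sign. Values under about 1 CPM rest on few counts and are the least precise. They occur in some libraries of Gypsy-218_DR-LTR, Gypsy-150-LTRb_DR and Gypsy101B-LTR_DR and of both parts of Gypsy-216_DR-LTR. The internal part of Gypsy-23-LTR_DR was under 1 CPM in every library, and the difference between its parts rests on it. No group had enough libraries for a test of outlying samples.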
